A study of Canis rufus and Canis latrans with 56 samples.

Results

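The galectins described here are LGALS1, LGALS2, LGALS3, LGALS8 and LGALS9, measured by 9 of the 24354 probes of a human Illumina bead array that was hybridised with canid blood RNA. The probes were chosen by their annotated gene symbol, with 1 probe each for LGALS1 and LGALS2, 2 for LGALS3, 3 for LGALS8 and 2 for LGALS9. Whole blood kept in RNAlater came from 1 coyote (Canis latrans, a free-ranging female) and 13 red wolves (Canis rufus), of which 6 were captive (2 females and 4 males) and 7 free-ranging (2 females and 5 males). The labels used here do not say which wolf was captive or which sex it was, so no comparison by captivity was made. Each animal's RNA went onto 4 arrays, spread over 7 slides of 8 arrays. The 4 arrays of an animal are technical repeats. In the correlations and the coyote comparison each animal counts once. The test among the wolves uses all their arrays and sets differences between animals against the noise of these repeats.

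Galectins are lectins that bind beta-galactoside sugars on glycoproteins through a conserved carbohydrate recognition domain, and they leave the cell without a signal peptide. Galectin-1, the product of LGALS1, forms homodimers and is known in humans and mice for dampening T cell responses. Galectin-3 carries a collagen-like tail and is abundant in macrophages, and galectin-8 and galectin-9 join a pair of different carbohydrate recognition domains by a linker. In human blood, galectins are found in lymphocytes, monocytes and granulocytes.

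Each value is a log2 intensity with the array's mean set to 0, so a difference of 1 doubles the intensity. The level of an animal is its mean over arrays after removal of slide differences. Human probes can differ in how they bind canid RNA, so levels do not rank the genes by abundance. Background was bounded by 42 genes known from liver or skeletal muscle, whose highest mean level was 0.396 (HPX, the haem carrier of plasma). Above it lay 2064 probes, 8.47% of the array. The arrays were not equal in signal range. Their 95th percentiles lay between 0.332 and 1.24, and wolf 11136 had the narrowest arrays, with a mean 95th percentile of 0.381.

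Of the 5 galectins described, LGALS1 and LGALS9 stood above background in these animals. The LGALS1 probe had a level of 5.50 in the coyote and 5.10 ± 1.03 in the wolves (SD, n = 13), far above the bound in all 14 animals. One LGALS9 probe, which by Illumina's probe naming reads a single isoform, had 0.72 in the coyote and 0.99 ± 0.33 in the wolves, and 12 of the 13 wolves exceeded the bound. The LGALS9 probe common to all isoforms was dimmer, with 0.38 in the coyote and a wolf mean of 0.30 ± 0.13, and 3 wolves exceeded the bound.

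The probes of LGALS2, LGALS3 and LGALS8 had mean levels below the bound. LGALS2, which is expressed by human monocytes, had 0.06 in the coyote and averaged 0.18 ± 0.13 in the wolves. The LGALS3 probes had -0.12 and -0.13 in the coyote, with wolf means of -0.22 ± 0.07 and -0.17 ± 0.09. The 3 probes of LGALS8, whose product marks damaged endosomes, ran between -0.10 and 0.16 in the coyote and had wolf means between -0.18 and 0.28. For these 3 genes only a bound can be given, and a low signal on a human probe does not say that the canid transcript is missing.

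Of 11 other genes of the family looked for, 7 were on the array, with 8 probes. LGALS12, a galectin of fat and myeloid cells, was the one above the bound, with 0.90 in the coyote and a mean of 1.02 ± 0.13 over the wolves. LGALS4, LGALS7, LGALS13, LGALS14, LGALS16 and LGALSL lay below it in every animal. None of these 8 probes differed among the wolves in the test described next (LGALS12 adjusted p = 0.176).

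**Figure D1:**
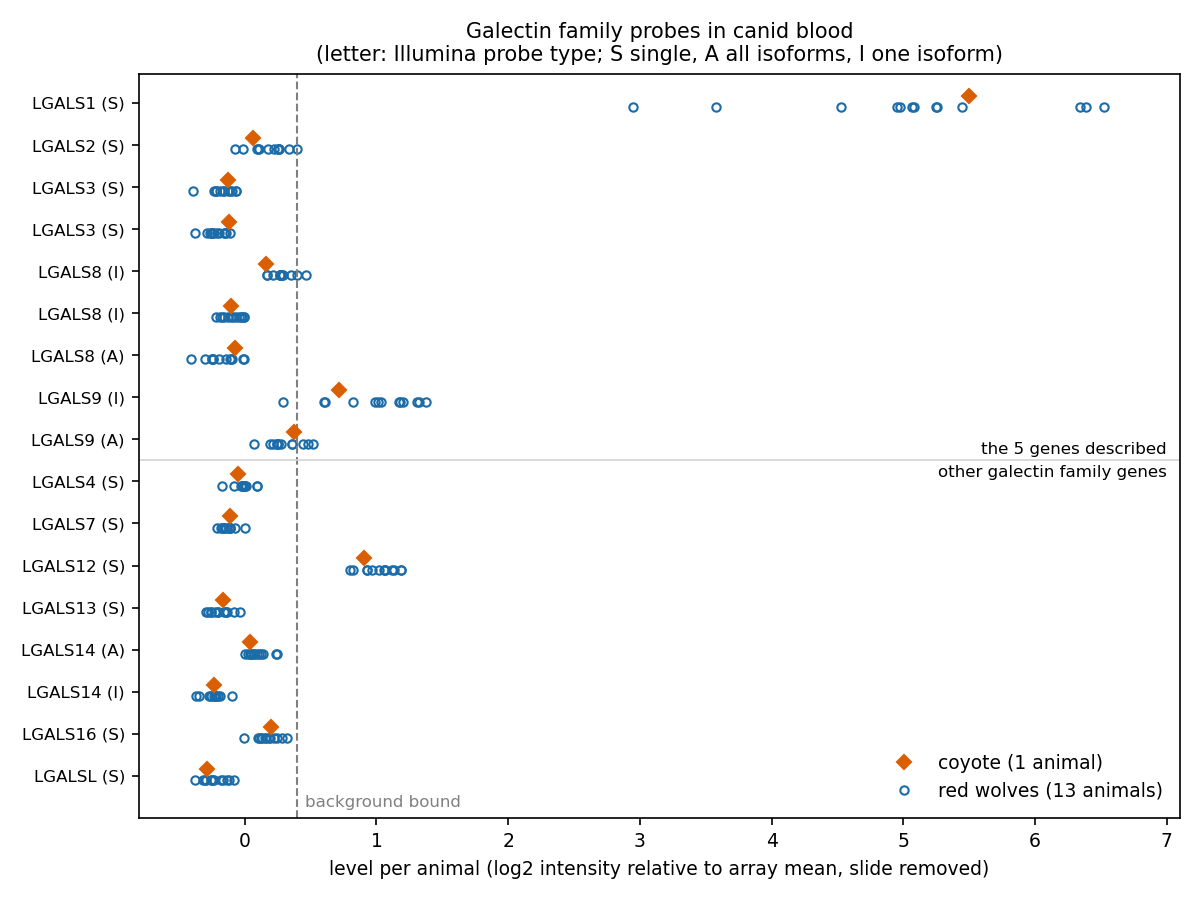
Level of each galectin family probe (log2 units from the array mean, horizontal axis) in the coyote (diamond) and in the 13 red wolves (circles, 1 per animal), with the 5 genes described at the top and other family members below. LGALS1 lies far to the right of the dashed background bound of 0.396 and is spread widely, 1 LGALS9 probe and LGALS12 lie around 1, and the remaining probes lie near or below the bound.

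The first comparison asked whether the galectins differed among the 13 wolves by more than their repeated arrays. The test was limma's moderated F test over all probes with slide in the model, at an adjusted p under 0.05, and 11.2% of all probes and 78.1% of those above the bound passed it. Of the 9 galectin probes 3 passed: LGALS1 (adjusted p = 3.39e-26), the isoform probe of LGALS9 (5.54e-06) and LGALS2 (0.00927). Both galectin probes above the bound were among them, and 1 of the 7 below it, where 5.02% of all probes passed. A call above the bound is therefore common on these arrays.

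LGALS1 varied most. Its level was lowest in wolf 10406 at 2.95, wolf 10537 at 3.58 and wolf 11310 at 4.53. Then came wolves 11206 (4.95), 11270 (4.98), 11136 (5.06), 10632 (5.08), 11148 (5.25), 11275 (5.26) and 11105 (5.45). It was highest in wolf 11274 at 6.34, wolf 11273 at 6.39 and wolf 111080 at 6.53. The lowest and the highest wolf thus differed 11.9-fold in intensity. The SD over wolves of 1.03 ranks 10 among all probes. It compares with an SD of 0.25 between single arrays of a wolf after removal of slide differences, and a standard error of a wolf's level of 0.13. Before that removal the array SD lay between 0.02 in wolf 11105 and 0.65 in wolf 11310. The share of LGALS1 variance that lay between wolves, with slide in the model, was 0.939.

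Wolves 10406 and 10537 each stood apart from the next wolf, and wolf 11310 did so with 1 low array. Before removal of slide differences wolf 11310 had 4.67, 5.13 and 4.98 on slides 1, 4 and 5, and 3.69 on slide 6. The interval used below takes array noise pooled over the wolves and is not adjusted for the number of steps or pairs. In the order of levels, 4 of the 12 steps between neighbouring wolves exceeded the 95% interval that array noise allows: the steps from wolf 10406 to 10537, from 10537 to 11310, from 11310 to 11206 and from 11105 to 11274. From wolf 11206 to wolf 11105, and from wolf 11274 to wolf 111080, no neighbours differed beyond it. Over all pairs of wolves 57 of 78 did.

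Both ends of the order held within slides. Wolf 10406 had the lowest LGALS1 value of all wolves on each of the 4 slides that held it, between 2.68 and 3.21, and wolf 10537 was lowest on slide 2 at 3.25. Wolf 11273 had the highest value on slides 3, 4 and 7, wolf 111080 on slides 1, 2 and 5, and wolf 11274 on slide 6. Slides themselves differed for LGALS1 (limma adjusted p = 4.06e-06), with uncorrected wolf means between 4.43 on slide 6 and 5.89 on slide 4. Slide 6 held wolves 10406 and 10537 and slide 4 held neither, so these means mix slide and wolf differences. A difference between slides was called for 20.3% of all probes and for 5 of the 9 galectin probes, which were LGALS1, both LGALS9 probes, 1 of LGALS3 (0.0238) and 1 of LGALS8 (0.0405). Without wolf 10406 the SD over wolves was 0.84, and without any other wolf it lay between 0.96 and 1.08. When wolves, slides or arrays were left out in turn or the arrays were rescaled, the adjusted p of LGALS1 was at most 3.38e-15.

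Wolf 10406 was lowest under each of 3 rescalings of the arrays, and the highest wolf differed in 2 of them. When all arrays were given 1 common distribution by quantile normalization, the lowest wolf was 10406 at 3.21 and the highest was wolf 11273 at 6.49, a 9.67-fold span. With the arrays scaled to equal spread, wolf 11274 was highest and the span was 13.8-fold. With arrays centred on their 75th percentile wolf 111080 was highest at 6.42, and the span was 11.9-fold. A note of collection in the wild stands on 1 array each of 3 wolves, 11136, 111080 and 11310, and of the coyote. These wolves had LGALS1 levels of 5.06, 6.53 and 4.53, so the noted wolves included the highest and the third lowest. Wolves without the note may also have been free-ranging, and it was not used in a test.

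**Figure D2:**
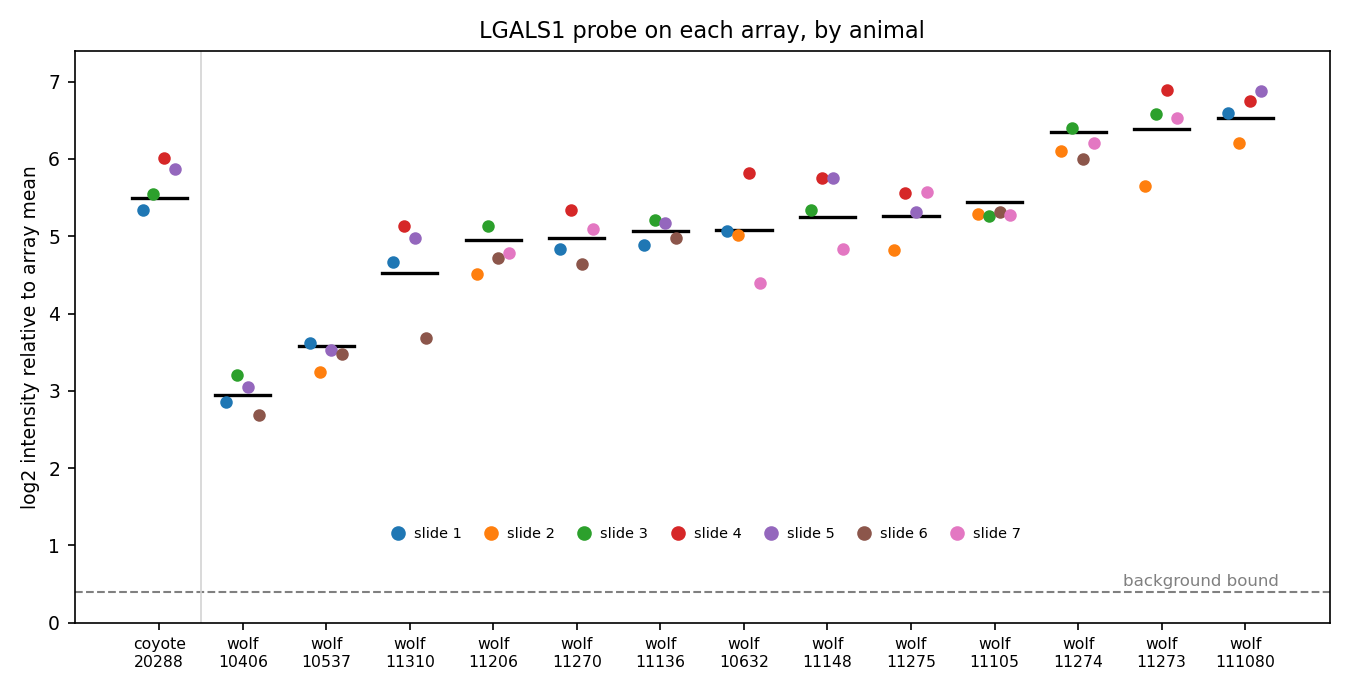
LGALS1 on each of the 56 arrays (points, coloured by slide; vertical axis in log2 intensity relative to the array mean), with the slide-corrected level of each animal as a bar and the background bound of 0.396 dashed. The coyote stands at the left at 5.50, and the wolves follow in order of level, from 2.95 in wolf 10406 to 6.53 in wolf 111080.

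LGALS9 varied less. The isoform probe was lowest in wolf 11136 at 0.29, below the bound, and next in wolves 10632 (0.60), 11310 (0.61) and 11270 (0.83). In the middle were wolves 111080 (0.99), 11274 (1.01), 11148 (1.04), 10537 (1.17) and 10406 (1.18). The highest were wolves 11273 (1.20), 11105 (1.31), 11275 (1.32) and 11206 (1.38). No neighbours in this order differed beyond the 95% interval of array noise, while 34 of 78 pairs did. The widest step, from wolf 11136 to wolf 10632, was 0.31 (SE 0.18), so a step of that size could not be resolved. The span was 2.12-fold, and since the lowest wolf lay below the bound, its part of the span cannot be told from background signal. The SD over wolves was 0.33, and 0.26 without wolf 11136. Between single arrays of a wolf the SD was 0.28 after removal of slide differences, and the standard error of a wolf's level was 0.14. Before that removal the array SD lay between 0.17 in wolf 11136 and 0.60 in wolf 11273. Slides differed as well (limma adjusted p = 1.87e-07), and their uncorrected wolf means ran from 0.55 on slide 1 to 1.45 on slide 2. Slides held different wolves, and wolf 11136 was on slide 1 but not on slide 2. These means therefore mix slide and wolf differences.

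The pair of LGALS9 probes gave different pictures. The probe common to all isoforms did not pass the test (adjusted p = 0.0952), and it ranged between 0.07 in wolf 11136 and 0.52 in wolf 11270. It too differed between slides (0.00311). Over the 13 wolves its levels had a Pearson r of 0.31 and a Spearman rho of 0.15 with those of the isoform probe. Wolf 11136 was lowest on both.

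LGALS2 passed the test at levels that lie below the bound throughout. Wolves 11148 (0.39) and 11273 (0.34) were highest and wolves 11310 (-0.08) and 11136 (-0.01) lowest. Since all lie below the bound, these cannot be read as differences in LGALS2 RNA. The call was lost without wolf 11148 (adjusted p = 0.0510) or wolf 11310 (0.140), without the slide term (0.0576), without slide 3, 4 or 5 (0.0714, 0.0581 and 0.0571), and when any 1 array of each animal was dropped (0.0697 to 0.280). The probes of LGALS3 and LGALS8 did not pass, with adjusted p values from 0.0920 to 0.779.

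**Figure D3:**
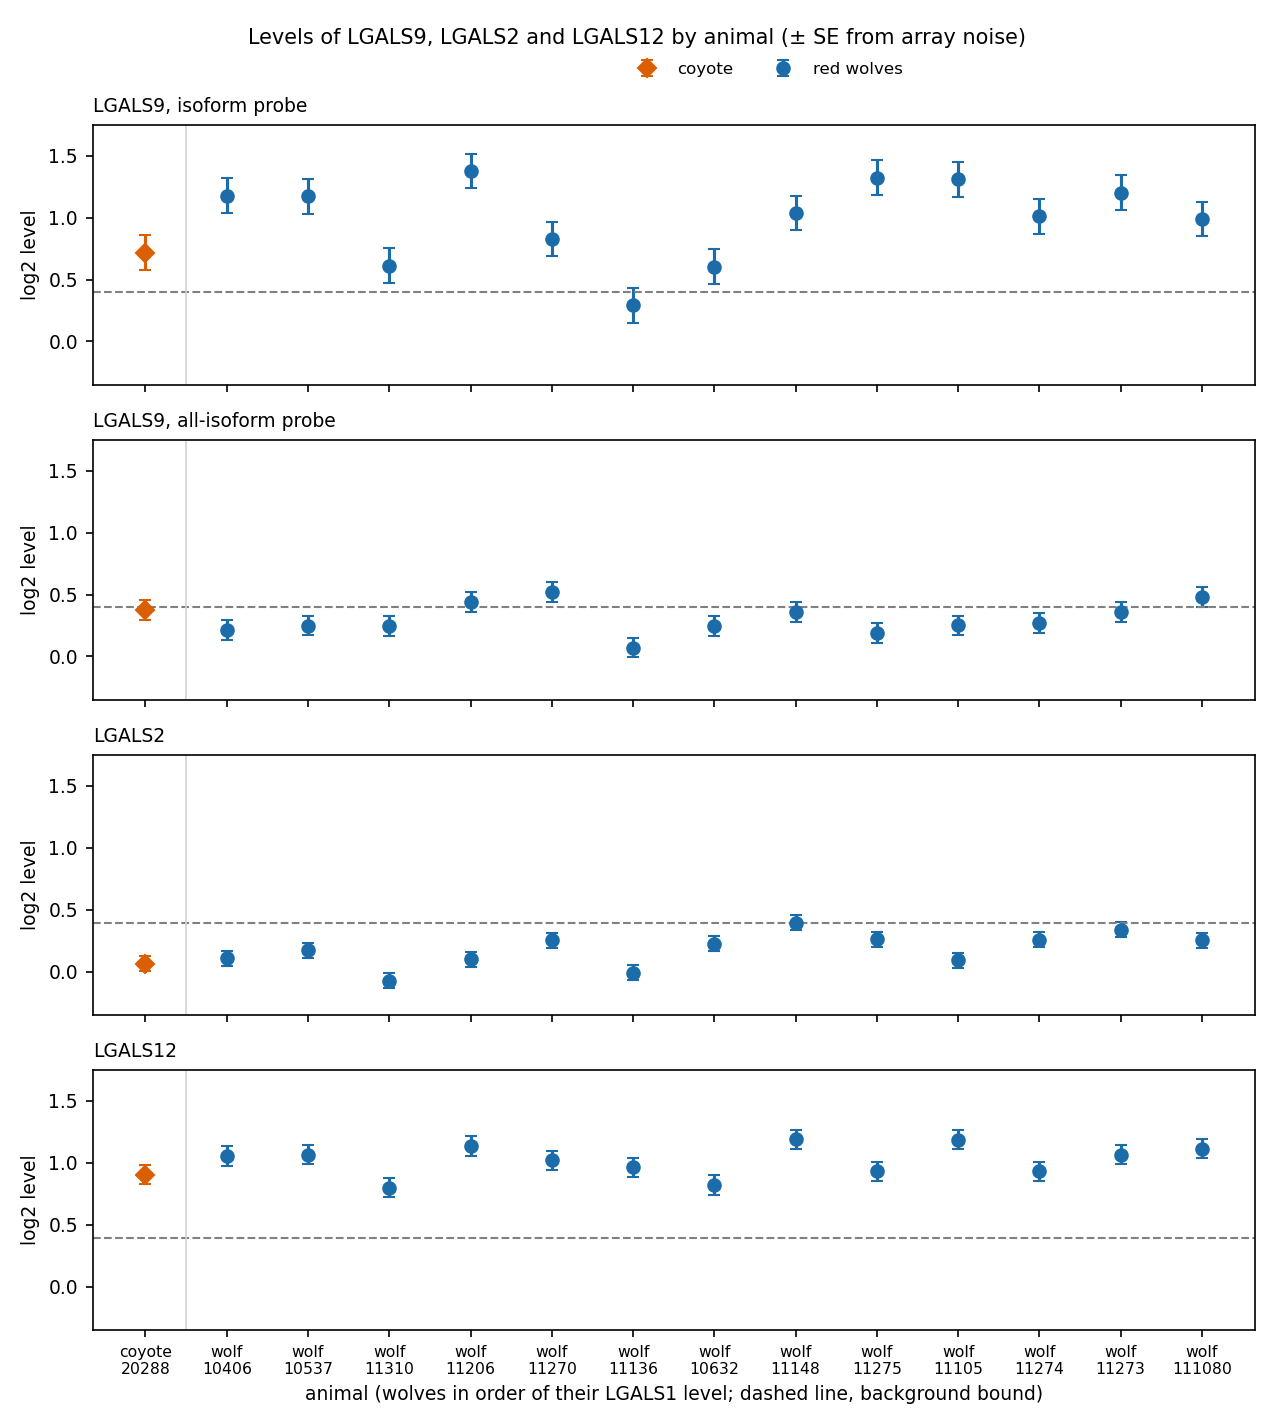
Levels of both LGALS9 probes, LGALS2 and LGALS12 (vertical axis, log2 intensity relative to the array mean, with the standard error from array noise) in the coyote and the 13 wolves, which are placed in order of their LGALS1 level. The isoform probe of LGALS9 ranges from 0.29 in wolf 11136 to 1.38 in wolf 11206 without following the LGALS1 order, and the other probes vary over narrower ranges.

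Of the galectins described here, LGALS1 with LGALS9 was the 1 pair in which both genes were readable. The other 9 of the 10 pairs hold at least 1 gene below the bound, so their correlations cannot be read as those of the genes. Of the 10 pairs, with each gene represented by its brightest probe, none passed an adjusted p under 0.05 over the 13 wolves (two-sided permutation test), for Pearson r or for Spearman rho, and at an unadjusted p under 0.05 there were 0 for r and 1 for rho. Pearson r ran from -0.28 (LGALS1 with LGALS8) to 0.45 (LGALS8 with LGALS9), with adjusted p values of at least 0.638. LGALS1 with LGALS9 had r = 0.001 (permutation p = 0.997) and rho = 0.08 (permutation p = 0.804). This r was 0.34 when the wolves farthest from the LGALS1 median (10406 and 10537) were left out. Within slides the same r ran from -0.42 to 0.64. LGALS12, which is outside these 10 pairs, was readable too. Over the 13 wolves it had r = 0.60 and rho = 0.49 with the isoform probe of LGALS9. With LGALS1 it had r = 0.08 and rho = 0.16. The pairs with LGALS12 were not tested.

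LGALS1 shared its pattern with few of the bright genes. Set against the other 1596 named genes above the bound, it had a Pearson r of at least 0.5 over the 13 wolves with 5 of them, while the median gene had 641 such companions. Only 2 genes had as few, ORC5, a subunit of the origin recognition complex, and CAV2, a caveolin; both were named after their values were seen. The highest r of LGALS1 with any gene was 0.62, against a median of 0.96 for the best companion of a gene. The count of companions changed with the processing, between 3 and 76 over the other settings, and over these settings at most 19 of 1596 genes had as few as LGALS1. All genes share the same arrays, and these correlations are descriptions with no test.

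LGALS9 lay at the other end, with 854 companions at r of at least 0.5, and 1585 of the 1596 genes had no more than that. After quantile normalization it had 472, and 915 genes had no more. LGALS12 had 305. The genes most like LGALS1 over the 13 wolves were GCLC, the catalytic subunit of the rate-limiting enzyme of glutathione synthesis (r = 0.62, rho = 0.41), SUMF1, which activates sulfatases (r = 0.59), CYP4A11, a fatty acid hydroxylase (0.55), TRIM52 (0.55) and PTPRR, a receptor-type tyrosine phosphatase (0.55). Their own SDs over wolves were between 0.12 and 0.19, against 1.03 for LGALS1. The least like were RENBP, an N-acetylglucosamine epimerase (-0.53), DCAKD (-0.50) and BTF3, a nascent polypeptide binding protein (-0.49).

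For the isoform probe of LGALS9 the most like were EHMT2, a histone H3 methyltransferase (r = 0.97, rho = 0.95), NCF1, a subunit of the phagocyte NADPH oxidase (0.94), ELL, an elongation factor of RNA polymerase II (0.94), TMEM234 (0.94) and PDLIM2 (0.94). All 5 were lowest in wolf 11136, as LGALS9 was. The least like were ORC5 (-0.71), ROMO1, a mitochondrial membrane protein (-0.58), and CHCT1 (-0.35). LGALS12 was most like ZNF576 (0.86), BAIAP2 (0.85), MOB3A (0.84), SNRPB2 (0.83) and SEPTIN9 (0.82). It was least like the immediate-early transcription factors EGR1 (-0.51, rho = -0.07) and FOS (-0.49, rho = -0.24), and ATG3 (-0.46). All 3 were highest in wolf 11310, where LGALS12 was lowest at 0.80, with wolf 10632 next at 0.82. On single arrays of wolf 11310 LGALS12 was 0.10 on slide 6 and between 0.67 and 1.04 on the others. LGALS12 did not differ among the wolves in the F test.

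**Figure D4:**
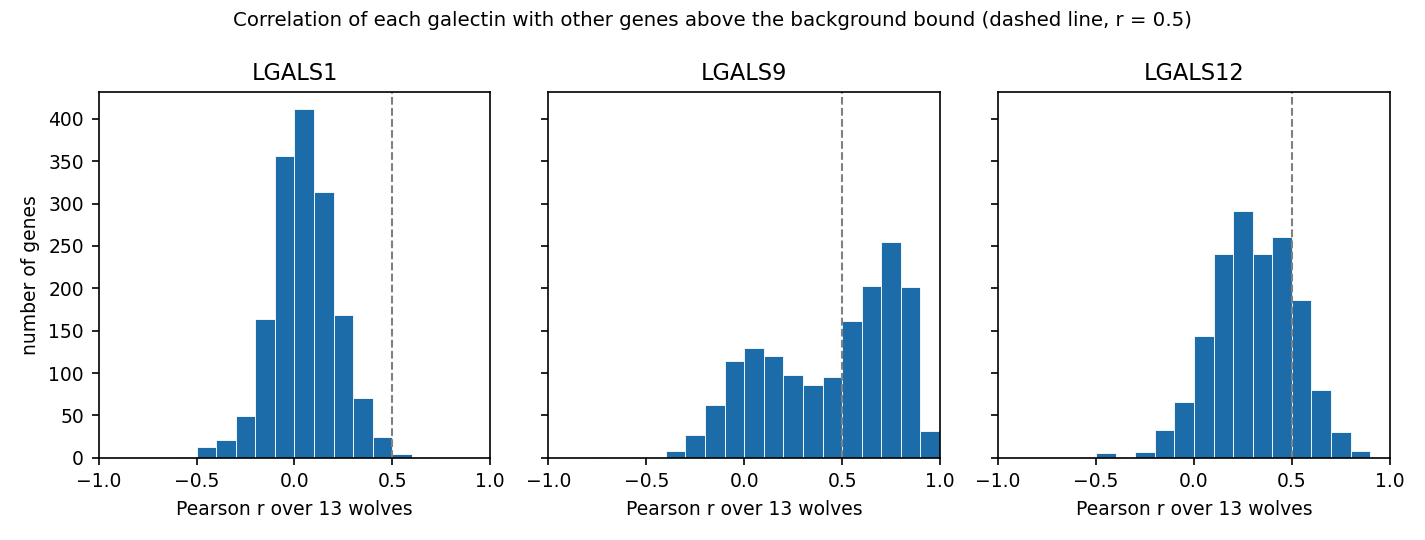
Histograms of the Pearson r over the 13 wolves between a galectin (LGALS1, the isoform probe of LGALS9, LGALS12) and each of the other 1596 named genes above the background bound (vertical axis, number of genes). The values for LGALS1 gather around a median of 0.05 with 5 genes at 0.5 or more, while those for LGALS9 have a median of 0.54 with 854 genes there.

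The signal range of an animal's arrays moved with LGALS9. Over the 13 wolves its isoform probe had r = 0.75 with the mean 95th percentile of the wolf's arrays (permutation p = 0.00425, adjusted over 5 genes 0.0213) and rho = 0.59 (permutation p = 0.0385, adjusted 0.192). Leaving out wolves 11136 and 10406, whose range lay farthest from the median, gave r = 0.76, and within slides it ran from 0.17 to 0.89. The call for r was lost without wolf 11136 alone (r = 0.52, adjusted p = 0.209) or wolf 11310 alone (r = 0.72, 0.0695), without slide 1 or 5 (0.0600 and 0.0557) and without the first or the fourth array of each animal (0.0626 and 0.0879). In the F test among the wolves, its adjusted p was at most 0.00446 over all settings, rescaled arrays included. The part of the array range in the LGALS9 differences was not tested.

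LGALS1 had r = 0.41 with the array range (permutation p = 0.167, adjusted 0.210) and rho = 0.50 (permutation p = 0.0846, adjusted 0.212), and without wolves 11136 and 10406 r was 0.34. Within slides it ran from -0.17 to 0.40. Wolf 11136, with the narrowest arrays, had an LGALS1 level of 5.06, close to the wolf mean of 5.10.

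**Figure D5:**
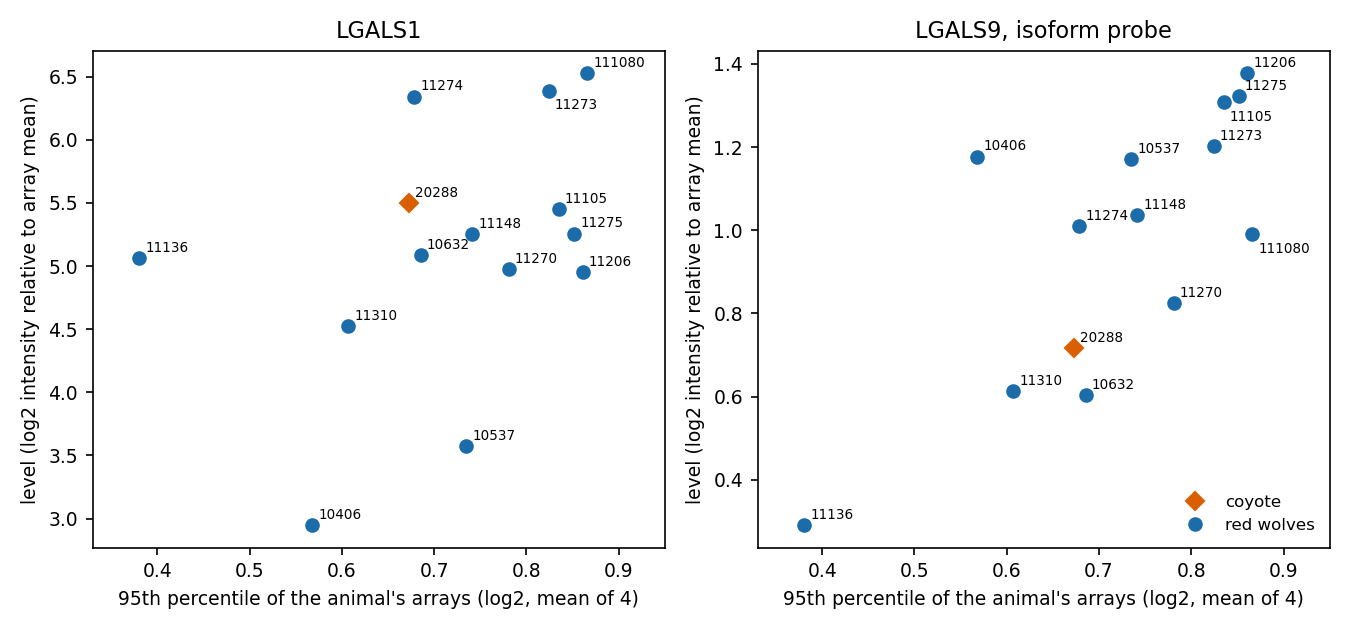
LGALS1 (left) and the isoform probe of LGALS9 (right) against the signal range of each animal's arrays (horizontal axis, 95th percentile in log2 units, mean of 4 arrays; vertical axis, level in log2 intensity relative to the array mean), with the coyote as a diamond and wolves as circles. Wolf 11136 has the narrowest range at 0.381 and the lowest LGALS9 level at 0.29, while its LGALS1 level of 5.06 lies in the middle of the wolves.

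Whole blood is a mixture, and fewer cells of a type and less RNA per cell cannot be told apart in it. Few markers of white cells were readable: 1 of 19 measured neutrophil genes (NCF1), 2 of 14 monocyte genes (TYROBP and FCER1G), 2 of 16 T cell genes (LCK and LEF1), 2 of 13 NK and cytotoxic cell genes, 1 of 12 platelet genes, 2 of 8 eosinophil and basophil genes and none (0) of 12 B lineage genes lay above the bound. Of 14 red cell genes 7 did. The monocyte marker CD14 and the T cell marker CD3E were below the bound, so the share of these cells was not measured.

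Of 40 pairs of a galectin and a blood cell list score, none passed an adjusted p under 0.05 over the wolves (permutation test), and 9 had an unadjusted p under 0.05 for Pearson r. For LGALS1, r with the 8 scores lay between -0.32 (T cells) and 0.23 (neutrophils), with permutation p values of at least 0.285. The lowest adjusted p, 0.0994, was shared by 4 pairs. They were LGALS2 with neutrophils (r = 0.70, rho = 0.73) and with platelets (r = 0.70, rho = 0.58), and LGALS9 with red cells and with B lineage cells (r = -0.69, rho = -0.47). LGALS2 lay below the bound in every wolf, as did the means of 18 of the 19 neutrophil, 11 of the 12 platelet and all B lineage genes. In 3 of these pairs at least 1 side therefore can mostly not be told from background signal. LGALS9 had r = 0.70 with the red cell score (permutation p = 0.00758, adjusted 0.0994; rho = 0.62, permutation p = 0.0259, adjusted 0.259), 0.61 without wolves 11105 and 11275 and between 0.46 and 0.84 within slides. That pair passed without wolf 11206 (r = 0.84, permutation adjusted p = 0.0176), and without the slide term (r = 0.76, 0.0187), where 7 of the 40 pairs passed, 4 of them with LGALS9 and 3 with LGALS2. When the lists were cut to their members above the bound, 6 of the 40 pairs passed, 5 of them with LGALS9, at r from 0.73 with red cells to 0.94 with the 1 neutrophil gene NCF1, and the sixth was LGALS8 with T cells (r = 0.73). LGALS1 was in none of them. The array range described above moved with LGALS9 over the same wolves. Summed over its 14 genes, the red cell list stood at 10.6 in the coyote and between 8.75 and 15.8 in the wolves. The part of cell content in the galectin levels was not tested.

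The glycoproteins that galectins bind, and the enzymes that build or trim their sugar chains, differed among the wolves at a rate near that of the whole array. Of 55 measured genes (59 listed) 7 passed the F test, 12.7% against 11.2% of all probes. Genes were counted by their brightest probe, while the share of the array counts single probes. Of the 7 genes above the bound 6 passed, where 78.1% of all probes above it did. Among receptors and ligands they were 5 of 33, and among glycan enzymes 2 of 22. The median SD over wolves was 0.09 in both lists and 0.09 over all probes.

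LAMP2, a lysosomal membrane glycoprotein that carries galectin ligands, had the largest SD of them, 0.61. It stood at 2.18 in the coyote and between 0.46 in wolf 11274 and 2.02 in wolf 111080 (adjusted p among wolves = 4.29e-21). CD44, the hyaluronan receptor, ran from 0.24 in wolf 11136 to 1.26 in wolf 10406 (adjusted p = 6.00e-09). B4GALT5, a galactosyltransferase, ran from 0.09 in wolf 11136 to 0.89 in wolf 111080 (2.47e-09). CD44 exceeded the bound in 12 wolves and B4GALT5 in 11, and wolf 11136 lay below it for both genes. The part of each span below the bound cannot be told from background signal.

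ITGB2, the beta chain of leukocyte integrins, passed below the bound, between -0.19 and 0.33 (0.000955), and not without the slide term (0.0990). NEU1, the lysosomal sialidase, ran from 0.14 in wolf 11136 to 0.58 in wolf 11273 (0.00329). NEU1 exceeded the bound in 8 wolves, and the part of its span below the bound cannot be told from background signal. Its call was lost without wolf 11136 (0.107) or without slide 1 (0.0537). It was also lost with 1 array fewer of each animal in 3 of 4 cases (0.0598 to 0.172). SPN, the sialomucin CD43 of leukocytes, ran from 0.47 in wolf 11310 to 1.19 in wolf 11273 (0.0347), and the call was lost without wolf 10537, 11273 or 11310 (0.0508, 0.147 and 0.0768). BSG, the glycoprotein basigin, ran from 0.90 in wolf 11136 to 1.76 in wolf 11273 (0.0412). Its call was lost without wolf 10632, 11136, 11270, 11275 or 11310 (0.0575, 0.219, 0.0676, 0.0618 and 0.112). The calls of SPN and BSG were also lost without slide 1, 2, 4 or 5, without array number 1 or 3 of each animal, without the slide term and with slide as a random block, at adjusted p values from 0.0510 to 0.296, and that of BSG with the mean of its probes (0.0919). MGAT4B, which branches N-glycans, was the gene above the bound that did not pass, at 0.57 ± 0.15 (adjusted p = 0.272).

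The coyote was then set against the 13 wolves, with 1 value per animal and the coyote's own spread taken as that of the wolves. No galectin probe passed limma's test at an adjusted p under 0.05, and 0 of 9 had an unadjusted p under 0.05. Over the array 1 probe was higher in the coyote (0.00411%) and 0 lower at the adjusted threshold, and at the unadjusted one 1.88% of probes were higher and 1.86% lower.

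LGALS1 was 5.50 in the coyote, the fourth highest of the 14 animals, against a wolf mean of 5.10. The difference was 0.40 (SE 0.87, 95% interval -1.39 to 2.18, limma adjusted p = 0.998), and the coyote exceeded the mean of the wolves on each of its 4 slides, by 0.13 to 0.91. The interval spans several-fold differences in either direction, since the wolves themselves vary widely. The isoform probe of LGALS9 was 0.72 in the coyote against a wolf mean of 0.99, a difference of -0.28 (SE 0.29, 95% interval -0.87 to 0.32). It lay below the wolf mean on each of the 4 slides, by differences between -0.41 and -0.02, and 10 of the 13 wolves stood above the coyote. Here too the 4 arrays repeat 1 coyote RNA and the slides held different wolves.

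For LGALS2, LGALS3, LGALS8 and the other LGALS9 probe the differences lay between -0.12 and 0.11, with 95% intervals reaching from -0.38 to 0.35. Of the 9 probes 1 (11.1%) lay outside the range of the wolves, an isoform probe of LGALS8 at 0.163 in the coyote against a lowest wolf of 0.166, where 12.2% of all probes and 6.78% of those above the bound lay outside. Among the partner and glycan genes none passed the adjusted threshold and 3 had an unadjusted p under 0.05, B3GNT8, C1GALT1 and THY1. They were higher in the coyote by 0.21, 0.16 and 0.21 at levels below the bound. LAMP2 was 0.95 higher in the coyote (SE 0.48, 95% interval -0.02 to 1.93, adjusted p = 0.998), which lay above all 13 wolves.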

How the data were processed

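The deposited values are log2 bead intensities, 1 column per array. Per the labels' design text, the authors took raw intensities from BeadStudio (version 1.5.0.34, per the submitters' processing notes), transformed them to log2 and centred each array in SAS. Array means are 0 in the table (at most 3.24e-09 in size), while array medians lie between -0.167 and -0.0325. Whether background was subtracted is, in the sources used here, not given. Folds are those of deposited intensities, and detection p-values were not used here. The number of arrays limits the precision.

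Probe genes came from the platform annotation, with 1 symbol for 18339 probes and none for 6015. No genome or sequence table was used, so probe sequences and their match to canid transcripts are not given here.

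limma 3.58.1 (R 4.3.3) was fitted with its trend option and Benjamini-Hochberg adjustment over all 24354 probes at 0.05. Wolves were compared on the wolves' arrays with animal and slide terms and 33 residual degrees of freedom. For the coyote, a fit of animal and slide over 56 arrays gave 1 value per animal, compared on 12 degrees of freedom plus limma's prior. Correlations used 100000 permutations. No arrays were identical. Repeated arrays of an animal differed with an SD of at least 0.206 over probes.

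All member probes are named. Partners are named where called, up to 6 per list by SD, and the 5 most and 3 least alike genes by Pearson r. Named genes beyond these were chosen after their values were seen. Members, lists and tests were chosen with earlier results of these data known. On simulated data with 24354 probes, animal SDs of 0.33 were recovered for 49 of 50 probes above the bound, with 8 false calls among 24154 unchanged probes. In the coyote comparison shifts of 1 and 2 were recovered for 17 and 45 of 50 bright probes. The simulated noise was independent between probes and held no difference in signal range between animals. These counts therefore do not cover calls that such a range could produce. Alternatives were no slide term, slide as a random block, quantile normalization, 75th percentile centring, equal array spread, no trend, dim probes left out, position on the slide, gene means over probes, and leaving out each array number, wolf and slide.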

Additional observations from a re-analysis of the deposited data

Results flagged for a closer look

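Among the 126 sets of 4 arrays of 1 animal and 1 galectin probe, 4 held an array set apart by Dixon's test, where chance gives about 6.3 (1 in 20). This test sets the gap to the nearest array against the range of the 4, so a small gap can be flagged. The values were taken before removal of slide differences. For LGALS2, wolf 11273 had 0.355 on slide 7, against 0.296 to 0.306 on its other arrays. For LGALS8, wolf 11273 had -0.167 on slide 3, against -0.254 to -0.245, and wolf 11105 had -0.301 on slide 6, against -0.186 to -0.166. The widest gap was that of wolf 10537 on another LGALS8 probe, 0.875 on slide 5 against 0.218 to 0.321. No array of LGALS1, LGALS3 or LGALS9 was among them.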

How the results depend on the processing

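The count of 3 galectin probes that differed among the wolves lay between 2 and 3 over 32 alternatives, and LGALS1 and the isoform probe of LGALS9 passed in all 32. The count of 0 in the coyote comparison held in all 35 alternatives and the count of 0 correlated galectin pairs in all 29. The 7 partner and glycan genes became 4 without the slide term and lay within 1.5 times of 7 elsewhere. The 1 galectin correlated with array range became 2 without the slide term and 2 with equal array spread, and it lay between 0 and 2 when arrays, wolves or slides were left out. It was not computed after quantile normalization, which makes the ranges equal. The 0 pairs of galectins and cell lists became 7 without the slide term and 6 with only list members above the bound, and lay between 0 and 1 when arrays, wolves or slides were left out; the cause was not tested. Counts of genes that follow LGALS1 and LGALS9 were added after seeing the data. With 1 coyote, its difference from the wolves is measured only to within the wide intervals given above, and for the dim probes the signal over background is the limit.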
